A study of Mus musculus with 10 samples.

Results

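The 10 genes described here are the YAP/TAZ coactivators Yap1 and Wwtr1, the 4 TEAD transcription factor genes Tead1 to Tead4, and 4 widely used target genes, Ccn1 (Cyr61), Ccn2 (Ctgf), Ankrd1 and Amotl2. They were chosen by name as parts of 1 pathway, and all 10 were measured by a probe set annotated to that gene alone, out of 17919 genes so measured. RNA came from whole lungs taken shortly before birth, at E18.5, and was read on 1 Affymetrix gene array per lung. The strain background is labelled C57BL/6 and 129X1,129S6. The 5 knockout lungs are labelled Shhcre:Hdac3fl/fl, in which the Shh-driven Cre, active in lung epithelium, deletes the histone deacetylase gene Hdac3. The 5 control lungs are labelled Shhcre control and carry the same Cre. The Hdac3 alleles of the controls are not in their label. With floxed homozygous dams and fl/+ Cre-carrying sires, a Cre-positive control would still be heterozygous for the deletion in its epithelium. Because only epithelium is recombined, every value below also holds RNA of intact mesenchymal, endothelial and blood cells.

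YAP (Yap1) and TAZ (Wwtr1) are transcriptional coactivators that do not bind DNA themselves and reach their target genes through the TEAD factors. The Hippo kinases, MST acting on LATS, phosphorylate them and hold them in the cytoplasm, while cell spreading and stretch favour their entry into the nucleus. In mouse lung they are best known for their part in the differentiation of the flat alveolar type 1 (AT1) cells. An array measures their mRNA and that of their targets, not their phosphorylation or location. All values are log2 probe set levels, on which each whole step is a doubling, and levels of different genes cannot be set against each other because each probe set has its own response.

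The targeted gene checks the labels. Hdac3 stood between 10.34 and 10.61 in the 5 knockout lungs and between 10.67 and 10.90 in the 5 control lungs, so that the groups did not overlap. It fell by 0.31 ± 0.07 (SE, n = 5 per group) on the log2 scale (limma adjusted p = 0.0203). It was not called without control 2 (-0.29, limma adjusted p = 0.0526) or without control 5 (-0.29, adjusted p = 0.0545). The lung epithelial markers Sftpc (13.39 to 13.49 in knockout and 13.42 to 13.47 in control lungs) and Nkx2-1 (10.92 to 11.13 in knockout and 10.94 to 11.13 in control lungs) were high in every lung. Of all 17919 genes 559 were called, that is 3.12%, at an adjusted p under 0.05 by limma with Benjamini-Hochberg adjustment over all genes. Lungs carry replicate numbers 1 to 5 in both groups. Deviations from the group means correlated at 0.154 to 0.485 within same-numbered pairs and at up to 0.33 between different numbers. The values for numbers 1, 2 and 3 (0.319, 0.154 and 0.183) were below that 0.33, so a pairing by number is not established. The numbers were used as pairs by a rule applied to these data, and no label gives a pairing. With the number as a block 846 genes, 4.72%, were called. A principal component of all genes also set lungs numbered 1 to 3 apart from those numbered 4 and 5, among knockouts and among controls. No label says what the lungs of a set share, and a pairing by number was not tested apart from this split.

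None of the 10 genes was called between knockout and control lungs by limma (0 of 10, against a background of 3.12%; lowest adjusted p = 0.102). Thus 0 were called higher and 0 lower, where 1.54% and 1.58% of all genes were. With the replicate number as a block, 1 of 10 was called, Ccn2, which fell (background of lower calls 2.44%). At an unadjusted p under 0.05 there were 3, Tead3 on the higher side and Tead1 and Ccn2 on the lower side, against 13.5% of all genes. For 0 of 10 genes did the groups fail to overlap (5.11% of all genes), and 3 of 10 differed in 1 direction in all 5 same-numbered pairs (17.7% of all genes). The median change of the 10 was -0.02, against 0.00 over all genes. Fewer cells of a type and less RNA per cell cannot be told apart in whole lung.

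Neither coactivator gene was called, and both varied little among lungs (SD 0.04 to 0.07). Yap1 stood at 9.77, 9.56, 9.68, 9.69 and 9.66 in knockouts 1 to 5, against 9.61, 9.78, 9.63, 9.68 and 9.67 in controls 1 to 5. The means were 9.67 in each group, with 1 knockout lung below every control lung and none above. The change of Yap1 was near 0, with a 95% interval from -0.11 to 0.11 (limma adjusted p = 0.999).

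Wwtr1, which encodes TAZ, stood at 10.34, 10.27, 10.22, 10.31 and 10.29 in knockout lungs, against 10.28, 10.19, 10.29, 10.28 and 10.27 in control lungs. Knockouts 1, 4 and 5 lay above every control lung, knockout 5 by less than the rounding, control 2 was low among controls, and the groups overlapped. The change was 0.03 ± 0.04 (SE; interval -0.07 to 0.12, limma adjusted p = 0.879). The log2 difference between Yap1 and Wwtr1 within a lung was -0.61 ± 0.06 in knockout and -0.59 ± 0.10 in control lungs (SD, n = 5 each), and an unequal change of the 2 coactivators was not shown (difference -0.03, exact permutation p = 0.714, two-sided, adjusted over 2 gene pairs 0.714).

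The TEAD genes, which encode the DNA-binding partners, differed in direction among themselves by small amounts, and none of the 4 was called. Tead3 stood at 9.34, 9.30, 9.28, 9.15 and 9.24 in knockouts 1 to 5, against 9.07, 9.19, 9.11, 9.05 and 9.02 in controls 1 to 5. In 4 of 5 knockout lungs it was above every control lung, and knockout 4 alone lay within the control range. Its change of 0.18 ± 0.05 (SE), a level 113% of control, had the smallest p of the 10 genes, and it was positive in 5 of 5 pairs (0.10 to 0.27). It did not pass the adjustment over all genes by limma (adjusted p = 0.102; blocked on the replicate number, 0.0736). With numbers 1 to 3 and 4 and 5 as a block in place of the 5 numbers, Tead3 was called (adjusted p = 0.0324). That split is in no label and was chosen with earlier results of these data known, so this call is no independent support. By limma with fewer lungs, adjusted p was 0.171 among numbers 1 to 3 alone and 0.693 among 4 and 5 alone.

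Tead1 stood at 9.81, 9.68, 9.68, 9.76 and 9.80 in knockout lungs, against 9.87, 9.79, 9.87, 9.87 and 9.83 in control lungs. The pair differences ran from -0.20 to -0.03, so that it was lower in 5 of 5 pairs, and 3 knockout lungs lay below every control lung. The change of -0.10 ± 0.05 (SE) was not called (limma adjusted p = 0.342).

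Tead4 stood at 8.45, 8.40, 8.46, 8.76 and 8.80 in knockout lungs, against 8.63, 8.69, 8.72, 8.73 and 8.82 in control lungs. Knockouts 1 to 3 lay below every control lung and knockouts 4 and 5 within the control range. The change was -0.14 ± 0.08 (SE, limma adjusted p = 0.526); it was -0.24 ± 0.05 among numbers 1 to 3 (adjusted p = 0.0657) and 0.01 ± 0.08 among numbers 4 and 5, a difference between the 2 sets that was not tested.

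Tead2 stood at 8.90, 8.82, 8.58, 8.70 and 8.98 in knockout lungs, against 8.67, 8.75, 8.63, 8.59 and 8.70 in control lungs. Here 3 knockout lungs were above every control lung, and knockout 3 was below all of them. The change was 0.13 ± 0.07 (SE, limma adjusted p = 0.5). The spread among knockout lungs (SD 0.16) was wider than among control lungs (SD 0.06) for Tead2, and likewise for Tead4 (SD 0.19 in knockout and 0.07 in control lungs). For Tead3 the SD was 0.07 in each group, and for Tead1 0.06 in knockout and 0.04 in control lungs. Differences in spread were not tested or set against all genes.

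**Figure D1:**
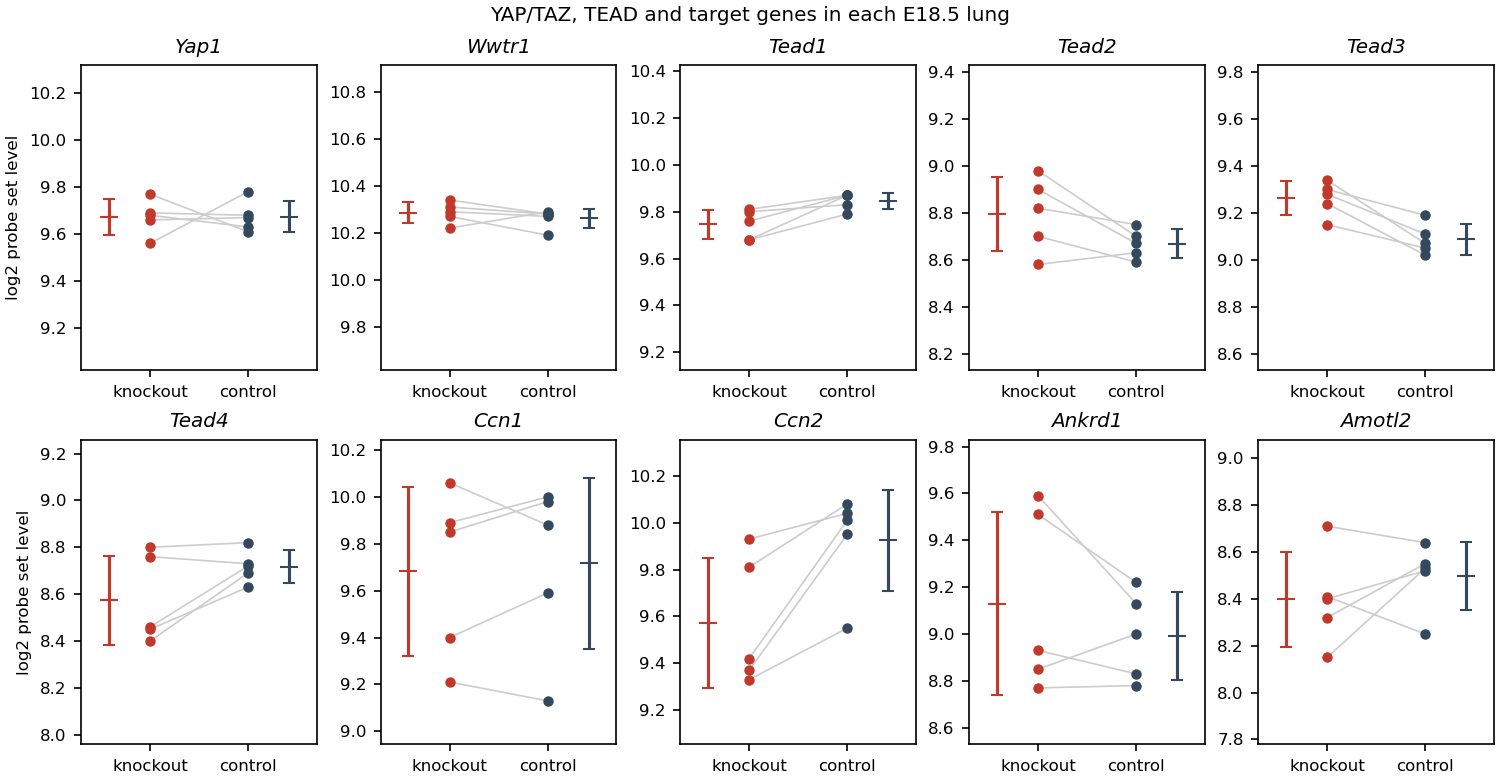
Log2 probe set level of the 10 genes (vertical axis, each panel spanning the same range) in the 5 knockout lungs (red) and the 5 control lungs (dark blue); grey lines join lungs of the same replicate number, and the bars beside the points are the mean ± SD. Yap1 and Wwtr1 are tight and level, Tead3 is higher and Tead1 and Ccn2 are lower in knockout in 5 of 5 pairs, and Ccn1 varies far more within each group than between them.

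The target genes are shown with the sequence in front of their start site, because the TEAD factors act on them through a short core, GGAATG, or CATTCC when read on the other strand. Each line holds the 250 bases before the start in RefSeq on GRCm38.p6, 5′ to 3′ in the direction of the gene, with the core in capitals. Of the 10 genes 7 matched the promoter table: Yap1, Wwtr1, Tead2, Tead3, Ccn1, Ankrd1 and Amotl2. Ccn2, Tead1 and Tead4 did not, so no sequence of theirs was read.
Ankrd1, chr19:36119845-36120094, minus strand: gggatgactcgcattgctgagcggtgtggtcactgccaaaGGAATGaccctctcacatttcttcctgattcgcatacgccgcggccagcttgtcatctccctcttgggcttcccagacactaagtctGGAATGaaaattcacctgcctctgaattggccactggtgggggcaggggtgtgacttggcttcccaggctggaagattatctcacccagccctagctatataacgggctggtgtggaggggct
Ccn1, chr3:145649986-145650235, minus strand: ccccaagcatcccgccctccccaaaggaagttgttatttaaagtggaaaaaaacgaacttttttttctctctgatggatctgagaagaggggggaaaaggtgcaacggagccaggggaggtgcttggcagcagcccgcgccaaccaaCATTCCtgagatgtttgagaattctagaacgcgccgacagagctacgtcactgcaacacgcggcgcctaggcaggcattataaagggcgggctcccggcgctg
Amotl2, chr9:102717554-102717803, plus strand: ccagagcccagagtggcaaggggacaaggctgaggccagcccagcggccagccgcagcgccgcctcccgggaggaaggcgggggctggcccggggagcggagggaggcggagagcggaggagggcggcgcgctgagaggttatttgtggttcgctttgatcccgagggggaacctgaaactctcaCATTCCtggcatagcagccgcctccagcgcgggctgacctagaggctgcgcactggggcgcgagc
Ankrd1 has the core at 2 places, 210 and 123 bases before the start, Ccn1 at 1 place, 103 bases before it, and Amotl2 at 1 place, 65 bases before it. The core was also found before a start of Yap1 (141 bases), Wwtr1 (the same place in front of 2 overlapping starts) and Tead3 (1 and 2 places in front of 2 of its 3 starts), and not in the Tead2 window. Thus 8 of the 10 windows of the 7 matched genes hold it on either strand, some of them overlapping, against 12.6% of all 32851 windows of 250 bases. The 1 place of Wwtr1 is counted in both of its windows. By gene it was 6 of 7, against 3880 of 27025; 1.02% of all windows hold it 2 or more times. The target genes were picked as known targets of this pathway, so these shares are no test of the set. A match is a stretch of letters and no measure of binding.

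Of the 4 target genes, Ccn2 alone was lower in every pair. Ccn2 encodes connective tissue growth factor, a secreted matricellular protein and a standard readout of YAP activity. It stood at 9.37, 9.33, 9.42, 9.81 and 9.93 in knockouts 1 to 5, against 9.95, 9.55, 10.01, 10.08 and 10.04 in controls 1 to 5. Knockouts 1 to 3 lay below every control lung, knockouts 4 and 5 lay within the control range, and control 2 was low among controls. The change was -0.35 ± 0.13 (SE), a level 78.3% of control, with an interval from -0.64 to -0.06. It was not called without the block (limma adjusted p = 0.237); with it Ccn2 fell by 0.35 ± 0.08 (SE, limma adjusted p = 0.0435). By pair the difference was -0.58, -0.22, -0.59, -0.27 and -0.11; among numbers 1 to 3 alone it was -0.46 ± 0.11 (SE, adjusted p = 0.0923) and among 4 and 5 alone -0.19 ± 0.09 (SE, adjusted p = 0.648). A second Ccn2 probe set, dimmer at 6.60 ± 0.17 in knockout and 6.68 ± 0.10 in control lungs (SD, n = 5 each), had a difference of -0.08 ± 0.08 (SE, limma adjusted p = 0.783). It lies close to the 20th percentile of all gene values, 6.30. With both Ccn2 probe sets averaged the change was -0.21 ± 0.09 (SE, adjusted p = 0.297).

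Ccn1, the related secreted protein CYR61, was not called in either fit. It stood at 9.89, 10.06, 9.85, 9.21 and 9.40 in knockouts 1 to 5, against 10 (to 2 decimals), 9.88, 9.98, 9.13 and 9.59 in controls 1 to 5. In both groups the lungs numbered 4 and 5 were the lowest. The groups overlapped, with knockout 2 above every control lung. The change was -0.04 ± 0.19 (SE, interval -0.45 to 0.38, limma adjusted p = 0.969). With the replicate block the standard error shrank to 0.06 and the interval to -0.18 to 0.11 (adjusted p = 0.835). The log2 difference of Ccn1 over Ccn2 was 0.11 ± 0.63 in knockout and -0.21 ± 0.50 in control lungs (SD, n = 5 each), and an unequal change of the 2 genes was not shown (0.32, exact permutation p = 0.405, two-sided, adjusted over 2 gene pairs 0.714; higher in 4 of 5 pairs).

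Ankrd1, a cardiac and stress-induced ankyrin repeat protein, stood at 8.93, 9.59, 9.51, 8.85 and 8.77 in knockout lungs, against 8.83, 9.13, 9.22, 9.0 and 8.78 in control lungs. Numbers 2 and 3 were highest in both groups, and those 2 knockout lungs were above every control lung. The change was 0.14 ± 0.16 (SE, limma adjusted p = 0.801), and the sign differed between numbers 1 to 3 (0.28 ± 0.17) and numbers 4 and 5 (-0.08 ± 0.10). Cardiac muscle markers, which fetal lung can hold from its pulmonary veins, were measured for 11 of 11 listed genes. Their mean level ran from 8.72 to 8.95 in knockout lungs and from 8.80 to 8.97 in control lungs. By limma 0 of 11 were called (3.12% of all genes) and 1 was below 0.05 before adjustment (13.5% of all genes). The part of these markers in the Ankrd1 values was not tested.

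Amotl2, an angiomotin family protein that binds YAP and restrains it, stood at 8.15, 8.41, 8.32, 8.40 and 8.71 in knockout lungs, against 8.53, 8.25, 8.55, 8.52 and 8.64 in control lungs. Knockout 1 was the lowest and knockout 5 the highest of all 10 lungs. The change was -0.10 ± 0.10 (SE, limma adjusted p = 0.763).

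The kinase and regulator genes that act on YAP and TAZ showed no call. Of 6 measured genes of the kinase core, 0 were called by limma, against 3.12% of all genes, with a median change of 0.02. Lats2, the kinase that phosphorylates YAP and is itself a YAP target, had the smallest p at -0.14 ± 0.05 (SE, adjusted p = 0.234), and was lower in 5 of 5 pairs. Mob1b, a LATS coactivator, stood at 0.08 ± 0.05 (SE, adjusted p = 0.603).

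Of 18 upstream regulators 0 were called (3.12% of all genes), with changes from -0.13 to 0.18. At an unadjusted p under 0.05 by limma there were 2, against 13.5% of all genes. The 2 of smallest p were Frmd6, a FERM protein of the pathway, at 0.18 ± 0.08 (SE, limma adjusted p = 0.328), and the kinase gene Taok3, at 0.18 ± 0.08 (SE, adjusted p = 0.335). Of 4 Vgll genes, whose proteins bind TEADs in place of YAP, 0 were called, against 3.12% of all genes. Vgll4 stood at 9.08, 9.20, 9.04, 9.29 and 9.26 in knockouts 1 to 5, against 8.90, 9.03, 8.83, 9.15 and 9.10 in controls 1 to 5, higher in 5 of 5 pairs. Its change was 0.17 ± 0.07 (SE, limma adjusted p = 0.323, and 0.0528 with the replicate block). Vgll2 stood at 0.07 ± 0.05 (SE, adjusted p = 0.626), with every value under 6.30.

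A further 17 measured genes of a commonly used YAP/TAZ target signature were read beside the 4 above. By limma 0 of 17 were called, against 3.12% of all genes, while 6 were lower and 1 higher at an unadjusted p under 0.05, against 6.71% and 6.84% of all genes. The change was below 0 for 14 of 17, against 48% of all genes, with a median of -0.11. In all 5 pairs 10 were lower and 1 higher, against 17.7% of all genes in either direction. With the replicate block 1 fell, Axl, and 1 rose, F3, against 2.44% and 2.28% of all genes.

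Among them Rbms3, an RNA-binding protein gene, had the smallest p, at -0.20 ± 0.05 (SE, limma adjusted p = 0.0614; 0.0533 with the block). Axl, a receptor tyrosine kinase, stood at 9.71, 9.82, 9.72, 9.59 and 9.81 in knockouts 1 to 5, against 9.86, 9.99, 9.91, 9.90 and 10.03 in controls 1 to 5. The 2 groups of Axl did not overlap, as was so for 2 of these 17 genes and for 5.11% of all genes, the other being Myof, singled out after its values were seen. The change of Axl was -0.21 ± 0.06 (SE, limma adjusted p = 0.072) and was called with the block (adjusted p = 0.0373). With each lung centred on its median, Axl, Rbms3 and Myof were called lower (limma adjusted p = 0.0446, 0.0375 and 0.0439), where 3.14% of all genes were called. With quantile scaling Rbms3 and Myof were called (0.0322 and 0.0491) and Axl was not (0.0516). Over 21 alternatives Axl was called in 4 and Rbms3 in 6. F3, the tissue factor gene, named here after its values were seen because it was the 1 rise, stood between 10.03 and 11.07 in knockout lungs and between 9.91 and 10.31 in control lungs. Its change was 0.48 ± 0.18 (SE, limma adjusted p = 0.218, and 0.0204 with the block).

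**Figure D2:**
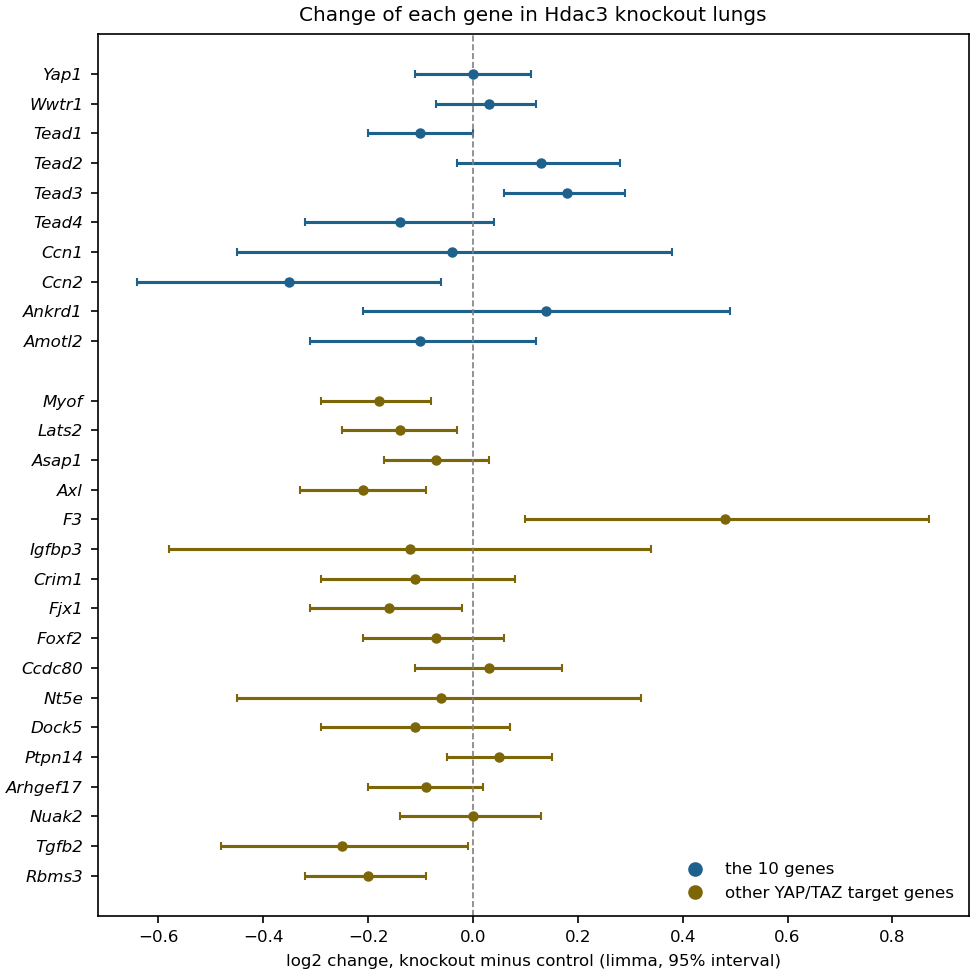
Log2 change, knockout minus control (horizontal axis, limma with its 95% interval, 5 lungs per group), of the 10 genes (blue) and of the 17 other measured YAP/TAZ target genes (brown). Most other targets lie a little below 0 and F3 lies above it; the widest intervals among the 10 genes are those of Ccn1, Ankrd1 and Ccn2.

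Cell type markers were set beside these changes. The smooth muscle and pericyte list had all 10 of its 10 genes below 0, against 48% of all genes. Among them Lmod1 (-0.00) and Pdgfrb (-0.02) were near 0. The mean level of the list ran from 9.10 to 9.29 in knockout lungs and from 9.30 to 9.38 in control lungs. Of that list 0 genes passed limma's adjusted threshold, against 3.12% of all genes. Before adjustment 1 was below 0.05, against 13.5% of all genes. It was Cnn1, named after its values were seen, at -0.41 ± 0.13 (SE, limma adjusted p = 0.123, and 0.0275 with the block). The summed level of the list ran from 13.12 to 13.30 in knockout and from 13.26 to 13.38 in control lungs on the log2 scale, and 0 of the 10 had a mean under 6.30. The fibroblast list overlapped, at 10.36 to 10.58 in knockout and 10.43 to 10.63 in control lungs, and so did the endothelial list, at 10.80 to 10.90 in knockout and 10.82 to 10.92 in control lungs. The AT1 list ran from 10.50 to 10.81 in knockout lungs and from 10.56 to 10.71 in control lungs, with 1 of 13 genes called higher (Gprc5a) and 3 lower (Pdpn, Col4a3 and Col4a4), where 1.54% and 1.58% of all genes were. With the block 2 AT1 genes were called higher, against 2.28% of all genes. The other was Rtkn2 (0.40 ± 0.17, SE, limma adjusted p = 0.327, and 0.00862 with the block). The pan-epithelial list stood at 10.53 to 10.61 in knockout lungs and 10.14 to 10.23 in control lungs, without overlap, with 3 of 8 genes called higher (1.54% of all genes). The 3 were Krt18 (1.34), Krt8 (0.74) and Cldn3 (0.58). Cdh1 (0.18, limma adjusted p = 0.0517) and Foxa2 (0.20, adjusted p = 0.0963) were not called but were higher in 5 of 5 pairs. The changes of Epcam (0.04), Nkx2-1 (-0.04) and Esrp1 (-0.02) in the same list were near 0. At an unadjusted p under 0.05 by limma 5 of 8 were higher, against 6.84% of all genes. All marker genes are named after their values were seen. Of the AT2 list 2 of 12 genes were called higher, Lpcat1 and Etv5, where 1.54% of all genes were. With the block 3 were, the other being Cxcl15, against 2.28% of all genes. The changes of the list were above 0 for 6 genes and below 0 for 6. The largest fall was that of Sftpa1 (-0.48, limma adjusted p = 0.0899, and 0.0608 with the block), lower in 5 of 5 pairs. The summed level of the AT2 list was 15.64 to 15.87 in knockout and 15.71 to 15.81 in control lungs on the log2 scale. Of the mesothelial list 2 of 7 were called higher, Msln (0.46) and Krt19 (0.67), where 1.54% of all genes were. The changes of this list were above 0 for 3 genes and below 0 for 4, with Wt1 (-0.00) and Lrrn4 (-0.02) near 0. Upk3b was called lower with the block (-0.26), where 2.44% of all genes were. The mean level of the mesothelial list was 8.62 to 8.84 in knockout and 8.45 to 8.74 in control lungs. The leukocyte list had 7 of 10 genes below 0 (48% of all genes) and 0 called (3.12% of all genes). With the block 1 was called lower, against 2.44% of all genes. It was Laptm5 (-0.27, limma adjusted p = 0.089, and 0.0227 with the block). The mean level of the leukocyte list was 8.09 to 8.27 in knockout and 8.23 to 8.34 in control lungs. The part of these marker differences in the target gene values was not tested.

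**Figure D3:**
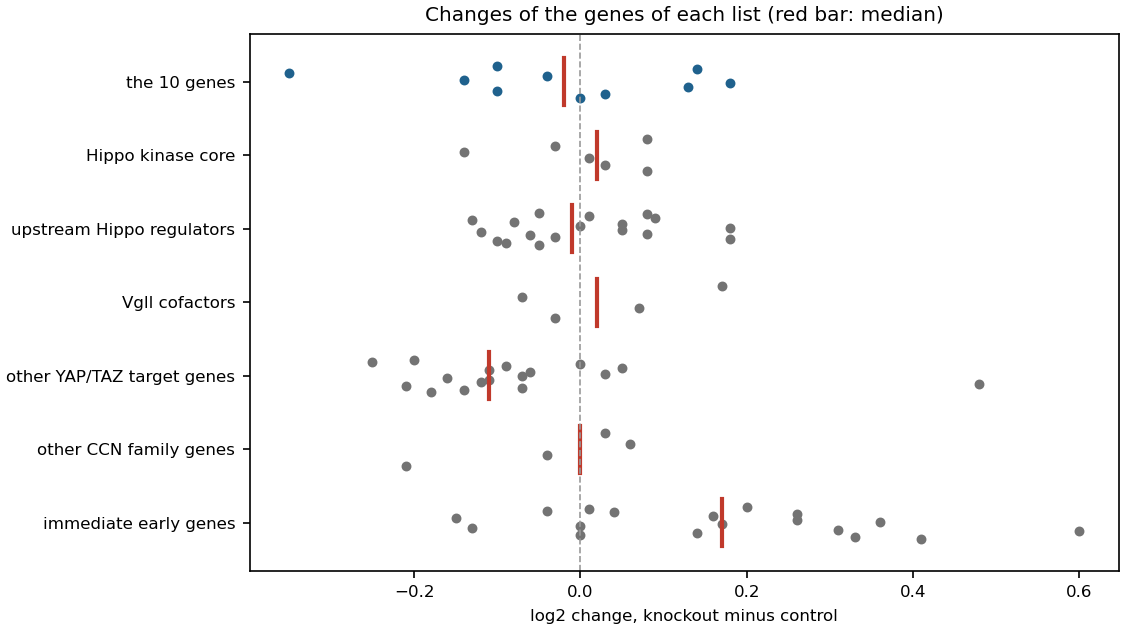
Log2 change, knockout minus control (horizontal axis), of every measured gene in each list, 1 point per gene, with the median as a red bar. The 10 genes and the Hippo kinase and regulator lists centre near 0, the other YAP/TAZ targets have a median of -0.11 and the immediate early genes one of 0.17.

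The remaining CCN family genes showed no call. Of 4 measured, 0 were called by limma, against 3.12% of all genes. Ccn3 stood at -0.21 ± 0.09 (SE, adjusted p = 0.291; 0.173 with the block), lower in 5 of 5 pairs, and Ccn5 at 0.06 ± 0.05 (SE, adjusted p = 0.682).

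Immediate early genes, which many stimuli induce within minutes, are read here because Ccn1 is itself one. Of 18 measured, 1 was called by limma, against 3.12% of all genes in either direction and 1.54% higher. It was Junb, an AP-1 subunit, which rose by 0.60 ± 0.10 (SE, adjusted p = 0.00559). With the block 5 rose, the others being Fos, Jund, Ier2 and Nr4a1, against 2.28% of all genes. Jund, another AP-1 subunit, had a change of 0.31 ± 0.13 (SE, adjusted p = 0.3, and 0.0172 with the block). Fos, named after its values were seen, stood at 8.80, 8.82, 8.64, 7.72 and 7.62 in knockouts 1 to 5, against 8.19, 8.47, 8.42, 7.33 and 7.16 in controls 1 to 5. Its change was 0.41 ± 0.32 (SE, limma adjusted p = 0.668, and 0.00792 with the block). Fos was lowest in numbers 4 and 5 of both groups, as Ccn1 was, while Ccn2 was highest in those numbers in both groups. The deviations of Ccn1 from its group means correlated over the 10 lungs at 0.88 with Fos, 0.91 with Egr1 and 0.92 with Atf3. Within numbers 1 to 3 and within 4 and 5, with each set's mean removed, the same values were -0.41, 0.48 and 0.24. For Ccn2 and Fos the values were -0.82, and -0.48 with each set's mean removed. These are descriptions over lungs that fall into 2 sets, and what the sets share was not tested.

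**Figure D4:**
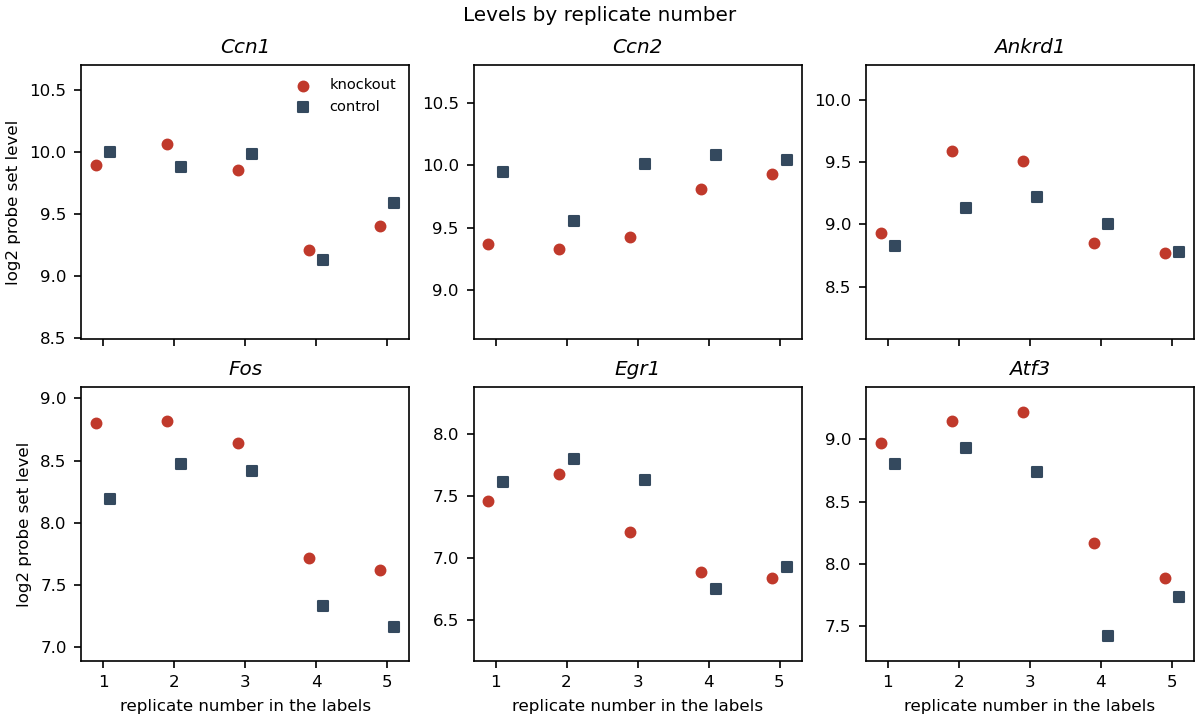
Log2 probe set level (vertical axis, each panel spanning the same range) by replicate number (horizontal axis) for Ccn1, Ccn2, Ankrd1 and the immediate early genes Fos, Egr1 and Atf3, with knockout lungs as red circles and control lungs as dark blue squares. Numbers 4 and 5 are lowest for Ccn1, Fos, Egr1 and Atf3 in both groups, while Ccn2 is below its same-numbered control at every number.

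Correlations between members are given here as a description. The pairs named here were picked from all pairs of the 10 genes by no set rule and with no test. Others were nearer 0, such as Yap1 with Tead1 (0.13) and with Tead2 (0.17). Over the 10 lungs, deviations from the group means correlated at 0.86 between Wwtr1 and Tead1 (0.89 with each number set's mean removed). Control 2 was the lowest control for both of these genes (10.19 and 9.79). Between Ccn2 and Amotl2 the value was 0.82 (0.67). Between Ccn1 and Ccn2 the value was -0.71, and 0.16 with the set means removed. Tead3 and Ccn2 stood at -0.83 (-0.52), and Tead4 and Ccn2 at 0.82 (0.07). Tead1 and Ankrd1 stood at -0.75 (-0.70), and Tead4 and Ccn1 at -0.76 (0.38). Between Yap1 and Wwtr1 the value was -0.10 (-0.11), and between Yap1 and Amotl2 -0.61 (-0.84).

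The genes whose deviations were most like each member's, out of all 17919, were taken as the 3 highest Pearson correlations over the 10 lungs, and are given with no test. They were Ttll12, Sntn and Vbp1 for Yap1 (0.92, 0.91 and 0.90), and Gm13271, Olfr310 and Rhox2-ps for Wwtr1 (0.94, 0.94 and 0.93). For Ccn1 they were E230016M11Rik, Kcnk5 and Ltbr (0.97, 0.97 and 0.96; 0.82, 0.76 and 0.85 with the set means removed). For Ccn2 they were 1700001G17Rik, Oas2 and Myo1c (0.97, 0.97 and 0.96). For Ankrd1 they were Mchr1, Rabac1 and Isl1 (0.96, 0.95 and 0.94), and for Amotl2 Gnpat, Gfap and Defb35 (0.96 each). With 10 lungs and so many genes, values of this size are selected maxima.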

How the data were processed

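The deposited table holds log2 probe set levels of 24888 probe sets in 10 lungs (3.526 to 13.611; sample medians 7.428 to 7.461). Per the submitters' processing notes the authors used oligo, RMA and limma, with no versions; no source used here gives the genome build. Labelling began with 100 ng RNA per lung and oligo-dT priming, per the labels' protocols. Probe sets were named through the platform annotation, and 1 probe set with 1 symbol and the highest mean was kept per gene, which gave 17919 genes. Knockout was compared with control by limma 3.58.1 in R 4.3.3 (two-sided, all 10 samples, no covariate), calling genes under 0.05 after Benjamini-Hochberg adjustment across the 17919; standard errors of the changes had a median of 0.0662. On simulated data of 17919 genes limma recovered 64% of changes of 0.35 and 98% of changes of 1.0, with 10 false calls. The changed genes were drawn at random, and the noise was independent among lungs, without number sets or pairs. Ccn2, Ankrd1 and Ccn1 had standard errors of 0.13, 0.16 and 0.19, above the median, so the 64% does not hold for them. Gene pairs were compared by exact permutation over 252 assignments, whose smallest p is 0.00794. Arrays give no counting interval, and precision depends on how many lungs there were. The lungs are labelled as biological replicates.

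Deviations of same-numbered lungs correlated at 0.154 to 0.485, all above 0.1, while lungs of different numbers had a median of -0.0829 and reached 0.33, and 7 of 10 lungs correlated best with the lung of their own number. By the rule that every pair exceed 0.1 the numbers were taken as pairs, so the replicate block is given beside a result where it changes the call; the pairing comes from the data, not the labels. The rule for names took all 10 genes, Hdac3, from each list up to 4 called genes or the 2 of smallest p, and the 3 genes most like each of 6 members. Stk3, Taok1, Rassf1, Gadd45a and Fosl1 were not analysed here, and Lats2 and Ptpn14 are in 2 lists. The genes, lists, tests and number sets were chosen with earlier results of these data known. Alternatives were the block, the number sets, leaving out each lung, a floor at the 20th percentile, a level filter, other probe set rules, 2 scalings and another prior.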

Additional observations from a re-analysis of the deposited data

Results flagged for a closer look

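In 5 of the 46 groups of 5 lungs examined, 1 lung lay so far from the others that its gap to the nearest lung, divided by the range of its group, passed Dixon's 95% value of 0.71; chance flags about 1 group in 20. Wwtr1 was 10.19 in control 2, with the nearest control at 10.27 (ratio 0.81). Ccn2 was 9.55 in the same lung, with the nearest control at 9.95 (ratio 0.76), and without control 2 its change was -0.45 (limma adjusted p = 0.0915). Frmd6 was 9.66 in knockout 5, with the nearest knockout at 9.40 (ratio 0.80). Mob1b was 9.77 in knockout 5, with the nearest knockout at 9.92 (ratio 0.90). Rbms3 was 10.98 in knockout 3, with the nearest knockout at 10.87 (ratio 0.71).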

How the results depend on the processing

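Of the 210 values of the 10 genes under 21 alternatives each, 3 passed the threshold: Ccn2 with the replicate block and, with the number sets as a block, Ccn2 and Tead3. No label gives the number sets or a pairing by number. So 1 and 2 of the 10 genes were called under these blocks, and 0 without each lung in turn. Over all genes 846 and 910 were called with these blocks, 2 with numbers 4 and 5 alone, and 393 to 699 without each lung in turn. Of the 65 pathway list genes 1 was called, Junb, where 3.12% of all genes were. With the replicate block 7 were called (4.72% of all genes) and with the number sets as a block 6 (5.08%). Numbers 1 to 3 alone gave 2 (2.5%) and numbers 4 and 5 alone 0 (0.0112%). A floor gave 2 (2.54%), median centring 4 (3.14%), quantile scaling 3 (3.23%) and a trended robust prior 4 (3.63%). Above the median level 4 of 52 were called (5.1% of the genes kept). Without each lung in turn 1 to 3 were called (2.19% to 3.9% of all genes). With numbers 4 and 5 alone the sign turned for Yap1 (0.003), Tead4 (0.010) and Ankrd1 (-0.080). Without each lung in turn Yap1 ran from -0.024 to 0.026, Ccn1 from -0.18 to 0.082 and the Yap1 to Wwtr1 difference from -0.05 to 0.02, the last without control 2. Hdac3 was not called with numbers 1 to 3 alone (-0.26, limma adjusted p = 0.0629) or 4 and 5 alone (-0.40, adjusted p = 0.421), nor Junb with 4 and 5 alone (0.72, adjusted p = 0.337); these fits have fewer lungs. The other 6 of the 10 genes kept their sign throughout. The number of arrays limits what could be called.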
